A study of Mus musculus with 8 samples.

Results

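The IL-1 and IL-18 system was followed through 10 genes among the 32285 genes counted in CD45+ immune cells of mouse mammary tumors. The genes were taken by symbol, and all 10 were found. *Il1a*, *Il1b* and *Il18* encode cytokines. *Il1rn*, *Il1r2* and *Il18bp* encode proteins that block them. *Il1rap* and *Il18r1* encode receptor subunits, and *Nlrp3* and *Casp1* encode a sensor and a protease that release the active cytokines. The question here was where in the immune infiltrate each of these genes was transcribed, and whether its level differed between tumors of E0771 cells and tumors of lines derived from E0771 that no longer responded to chemoimmunotherapy.

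IL-1α and IL-1β bind IL-1R1, which signals after pairing with the accessory protein IL-1RAP, and MYD88 and the IRAK kinases carry the signal on. The receptor antagonist (*Il1rn*) occupies IL-1R1 without signaling, and IL-1R2 is a decoy that binds IL-1 but has no signaling domain. IL-18 signals through IL-18R1 and IL-18RAP, which are well known on T and NK cells, and the secreted IL-18 binding protein (*Il18bp*) neutralizes it. NLRP3 senses cell damage and assembles an inflammasome that activates caspase-1, which cuts the inactive precursors of IL-1β and IL-18. Transcript counts therefore say nothing about how much cytokine was cut or secreted.

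Tumors were grown in the mammary fat pad of female mice and collected on day 18. E0771 is a mouse mammary carcinoma line of C57BL/6 origin. The parental group (replicates 1 and 3) received unselected E0771 cells. The E0771-Res1 and E0771-Res2 groups (replicates 1 to 3 each) received cell lines raised from E0771 tumors that had come back after paclitaxel and anti-PD-1 therapy. Each resistant line is 1 derivation, so every contrast below compares lines and cannot be told apart from what is particular to that line. No therapy of the 8 mice is named in the labels, and the age of the mice was not given in the sources used here. Parental replicate 2 was not analysed here. Each replicate is 1 mouse.

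Of 11430 cells, 10605 (92.8%) had 500 to 6000 detected genes and under 10% mitochondrial counts and were kept, 604 to 2020 per mouse. Median depth was 7631 to 8160.0 unique molecular identifiers (UMIs, each standing for 1 captured transcript) per kept cell in parental and E0771-Res1 tumors, against 5589, 5677.5 and 7001 in the 3 E0771-Res2 tumors. Cells were assigned by gates on marker UMIs that hold none of the 10 genes. The gates gave 3834 monocytes (265 to 626 per mouse), 2354 macrophages with at least 10 *C1qa* UMIs (102 to 586), 424 dendritic cells (20 to 102) and 833 lymphoid cells (51 to 190), the last being 607 T and 226 NK cells. Each of the markers used to check the gates (6 for monocytes, 5 for macrophages, 7 for dendritic and 7 for lymphoid cells) was highest in its own class. Most of them were gate genes themselves, for which the gates largely fixed this outcome. Outside the gates were the 5 macrophage markers, *Ccr2* for monocytes, *Zbtb46* for dendritic cells and *Trac*, *Nkg7* and *Lck* for lymphoid cells. A further 2804 cells met no gate. Another 308 met several, or met a T, NK, B cell or neutrophil gate while holding at least 10 *C1qa* UMIs. Levels are given as CPM, the UMIs of a gene per 1000000 UMIs of that class in that mouse, and are not divided by gene length because reads were taken from transcript ends.

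*Il1b* (ENSMUSG00000027398) lies on chromosome 2 of GRCm38 from 129364570 to 129371139 on the minus strand. *Il1r2* (ENSMUSG00000026073) spans chromosome 1 from 40074079 to 40125231 and *Nlrp3* (ENSMUSG00000032691) chromosome 11 from 59541568 to 59566956, both on the plus strand. These 3 genes had the changes between tumor lines that recurred in monocytes and macrophages, so the DNA just before 1 annotated start of each is shown, 5′ to 3′ on the gene's strand (RefSeq, GRCm38.p6). Capitals mark TATAAA in *Il1b*, 31 bases before the start, and a match to the NF-kB consensus in *Nlrp3*, 186 bases before the start. The stretch of *Il1r2* lies 241 to 109 bases before a RefSeq start that is inside the annotated gene, between its exons, and holds no capitals because none of the motifs searched was in it.
Il1b, chr2:129371140-129371389, minus strand: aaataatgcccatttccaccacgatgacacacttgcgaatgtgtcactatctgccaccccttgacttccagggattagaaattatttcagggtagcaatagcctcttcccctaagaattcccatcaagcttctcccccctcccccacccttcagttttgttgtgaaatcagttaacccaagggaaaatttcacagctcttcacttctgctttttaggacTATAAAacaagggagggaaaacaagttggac
Il1r2, chr1:40085852-40085984, plus strand: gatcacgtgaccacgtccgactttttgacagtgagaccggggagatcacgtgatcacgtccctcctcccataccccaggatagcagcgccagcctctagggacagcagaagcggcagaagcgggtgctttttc
Nlrp3, chr11:59541319-59541567, plus strand: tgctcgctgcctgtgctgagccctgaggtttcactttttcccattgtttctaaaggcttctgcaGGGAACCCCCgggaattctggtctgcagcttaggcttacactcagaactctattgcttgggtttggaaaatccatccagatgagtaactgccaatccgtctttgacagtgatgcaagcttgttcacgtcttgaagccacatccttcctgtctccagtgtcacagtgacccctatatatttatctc

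All 10 genes had promoters in the RefSeq table, from 250 bases before to 50 bases after each start. Searched on both strands, the NF-kB consensus occurred in 1 of the 10 genes and in 4.51% of 32851 mouse promoters. The AP-1 motif TGANTCA occurred in 2 genes (*Il1a* and *Il1rn*) and 7.81% of promoters, the ETS motif GAGGAA in 4 genes and 28.3%, and TATAAA in 4 genes (*Il1a*, *Il1b*, *Il1rn* and *Il18*) and 13.6%. A gene was counted if any of its starts held the motif, whereas the percentages count single promoters. *Il1rn*, *Il18r1* and *Nlrp3* have several starts and so had more room for a match. These matches describe letters in the sequence and were not tested for binding.

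*Il1b* was the most counted member, with 116555 UMIs over all kept cells, of which 48.47% fell in monocytes and 23.33% in macrophages. It was lower in E0771-Res2 tumors than in the other tumors in both cell classes. Monocytes held 2827 and 2957 CPM (parental), 3149.7, 3519 and 2253 CPM (E0771-Res1) and 1815, 1531 and 1639 CPM (E0771-Res2). Every E0771-Res2 tumor lay below every other tumor, while parental and E0771-Res1 tumors overlapped. The group means were 2892 ± 92.0 CPM (SD, n = 2), 2974 ± 651 CPM (SD, n = 3) and 1662 ± 143 CPM (SD, n = 3). The fall from parental to E0771-Res2 was 0.78 ± 0.14 on the log2 scale (adjusted p = 0.00995), or 1.71-fold. Between E0771-Res1 and E0771-Res2 it was 0.84 ± 0.13 on the log2 scale (adjusted p = 0.00299), or 1.79-fold. The first of these was lost without parental replicate 1, parental replicate 3 or E0771-Res2 replicate 3 (adjusted p = 0.118, 0.1 and 0.0519), where a lone parental mouse is assumed to vary like the other groups. The second held in all alternatives run. E0771-Res1 differed from parental by 0.06 ± 0.15 on the log2 scale (adjusted p = 0.959), within the spread between mice. Across all 9380 genes tested in monocytes, 0.0107%, 3.21% and 3.3% were called for E0771-Res1 against parental, E0771-Res2 against parental and E0771-Res2 against E0771-Res1. Of the 9 members tested, 0, 4 and 3 were called, all of them lower. In the first contrast 2 members had an unadjusted p under 0.05 with edgeR, beside 778 of all 9380 genes, and DESeq2 also called 0. The median change of the 9 members from parental to E0771-Res2 was -0.498 on the log2 scale, beside 0.0146 over all genes tested.

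In macrophages, *Il1b* stood at 2006 and 2233 CPM (parental), 1360.5, 1772 and 1831 CPM (E0771-Res1) and 1069.9, 1002 and 986 CPM (E0771-Res2). The 3 E0771-Res2 tumors were again the lowest and lay close together. The fall from parental to E0771-Res2 was 1.07 ± 0.12 on the log2 scale (adjusted p = 0.000674), or 2.09-fold, and that from E0771-Res1 was 0.69 ± 0.11 on the log2 scale (adjusted p = 0.00322), or 1.61-fold. Against parental tumors, E0771-Res1 differed by -0.38 ± 0.12 on the log2 scale (adjusted p = 0.203), which did not pass. It passed with no filter on low counts, at -0.38 (adjusted p = 0.0185), and without E0771-Res1 replicate 3, at -0.47 (adjusted p = 0.0425). Of 9132 genes tested in macrophages, 0.263%, 2.16% and 3.16% were called in the same 3 contrasts. Among 9 members tested the calls numbered 0, 3 and 3, again all lower. In the first contrast 5 members had an unadjusted p under 0.05, beside 1127 of all 9132 genes, and DESeq2 called 0. The median change of the members from parental to E0771-Res2 was -0.375, beside 0.0102 over all genes. Contrasts that share the parental or the E0771-Res2 mice are not independent of each other. Monocytes and macrophages were not split into subsets here. The part of the subset mix within each class in the falls between lines was not tested.

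Dendritic cells were fewer, and their *Il1b* was also lowest in E0771-Res2, at 1439 and 2311 CPM (parental), 1874, 2645 and 1267 CPM (E0771-Res1) and 633, 767 and 808 CPM (E0771-Res2). The groups did not overlap between E0771-Res2 and the others, but neither difference passed the test. The values were -1.30 ± 0.25 on the log2 scale (adjusted p = 0.139) against parental and -1.35 ± 0.23 on the log2 scale (adjusted p = 0.0513) against E0771-Res1. Of 5453 genes tested in dendritic cells, 0%, 0.0367% and 0% were called in the 3 contrasts, and of 7 members 0, 1 and 0. At an unadjusted p under 0.05 edgeR had 1, 4 and 2 of these members, beside 258, 421 and 321 of all 5453 genes. DESeq2 called 0, 2 and 2 members, which were *Il1b* and *Il1r2*. The share of all genes that DESeq2 called is not given here, so its counts alone do not set the members apart.

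Lymphoid cells carried *Il1b* counts at 18.6% to 50.4% (median 30.6%) of the monocyte level of the same mouse. *Lyz2* and *Cd14*, myeloid genes picked for this comparison after their values were seen, stood at 18.9% to 29.8% (median 21.8%) and 14.1% to 39.5% (median 23.6%). *Il18* stood at 16.0% to 32.5% (median 29.0%) and *Nlrp3* at 21.8% to 47.2% (median 29.9%). These ranges overlapped, so the lymphoid counts of *Il1b*, *Il18* and *Nlrp3* were not read as transcription in lymphoid cells.

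The share of cells with an *Il1b* UMI was compared after each cell was thinned to 2500 UMIs, which puts all cells at 1 depth. The thinned share of monocytes with *Il1b* was 80.1% ± 0.622 for parental, 78.3% ± 5.31 for E0771-Res1 and 66.8% ± 3.38 for E0771-Res2 mice (SD over mice). In macrophages it was 73.4% ± 5.48 for parental, 69.0% ± 6.15 for E0771-Res1 and 59.3% ± 1.15 for E0771-Res2 mice. T cells gave 33.5% ± 2.72 for parental, 33.0% ± 9.75 for E0771-Res1 and 39.3% ± 5.39 for E0771-Res2 mice at the same depth. The part of background transcripts in the monocyte and macrophage shares was not tested. Without thinning the monocyte shares were 92.2% for parental, 90.1% for E0771-Res1 and 81.6% for E0771-Res2 mice. Cells under 2500 UMIs were left out, 13, 25 and 37 monocytes and 2, 7 and 5 macrophages of the 3 groups. The fitted values were close to those above in cells with at least 4000 UMIs, a check added after the data were seen, at -0.77 (adjusted p = 0.0141) in monocytes and -1.10 (adjusted p = 0.000645) in macrophages on the log2 scale for E0771-Res2 against parental.

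**Figure D1:**
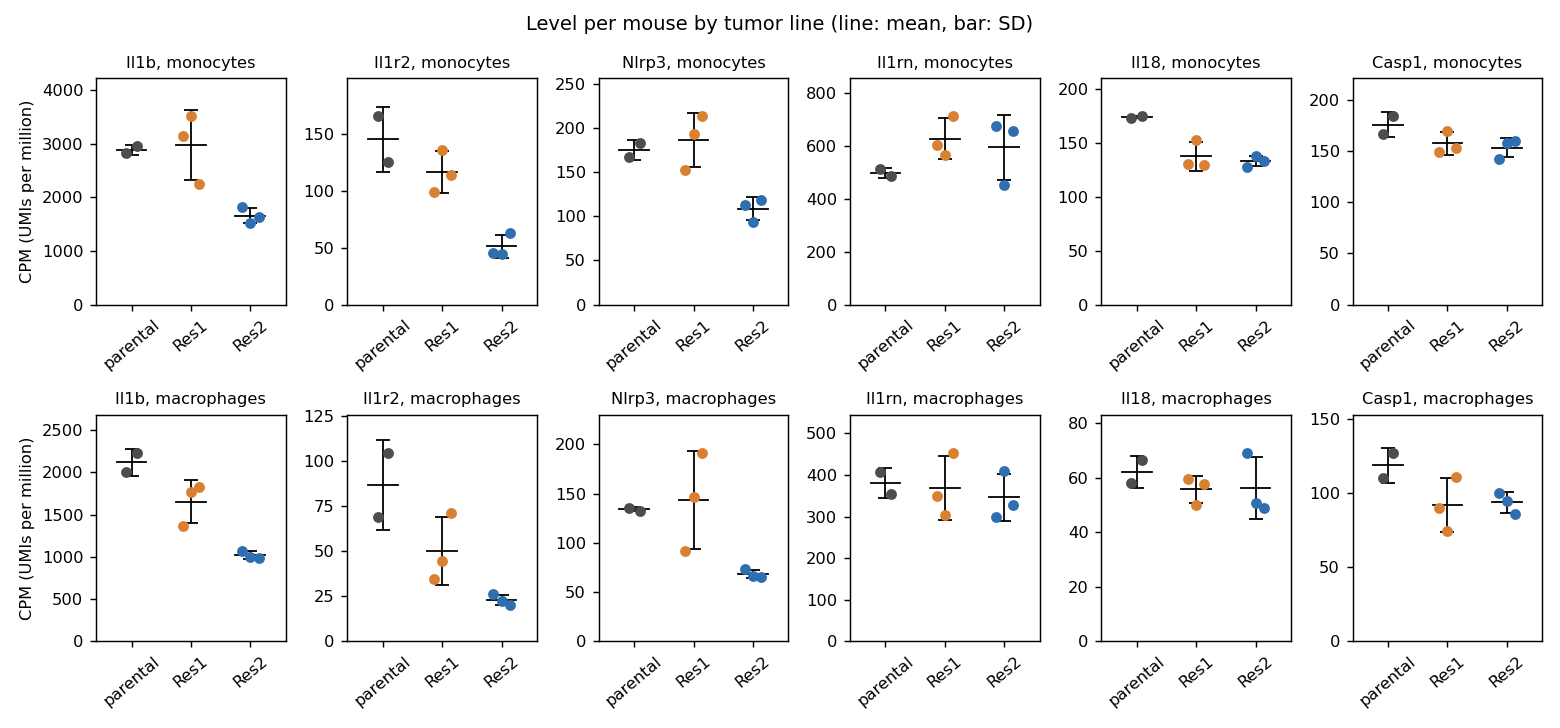
Level of 6 genes (y axis, CPM from 0) in each mouse (points) of the parental, Res1 and Res2 tumors, for monocytes in the upper row and macrophages in the lower row, with the group mean as a line and the SD as a bar. *Il1b*, *Il1r2* and *Nlrp3* of all 3 Res2 tumors lie under every parental and Res1 point, whereas the *Il1rn* points of Res2 overlap those of the other lines in both rows.

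*Il1a*, the other IL-1 agonist, was rare, with 494 UMIs over all kept cells. Monocytes held 9.89 and 1.04 CPM (parental), 19.4, 14.2 and 2.34 CPM (E0771-Res1) and 5.68, 4.05 and 3.52 CPM (E0771-Res2), from 2 to 77 UMIs per mouse. The lines overlapped there. *Il1a* in E0771-Res2 monocytes was -0.50 ± 0.69 on the log2 scale (adjusted p = 0.794) against parental and -1.46 ± 0.55 on the log2 scale (adjusted p = 0.175) against E0771-Res1. Macrophages held 3.11 and 1.12 CPM (parental), 5.8, 5.37 and 11.3 CPM (E0771-Res1) and 2.92, 4.91 and 2.08 CPM (E0771-Res2), from 1 to 33 UMIs per mouse. All 3 E0771-Res1 mice lay above the other 5. E0771-Res1 macrophages differed from parental ones by 1.5 ± 0.61 on the log2 scale (adjusted p = 0.334), and E0771-Res2 from E0771-Res1 by -1.17 ± 0.42 on the log2 scale (adjusted p = 0.17). No contrast between lines passed in either class.

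The IL-1 decoy receptor *Il1r2* had the largest fitted fall among the members tested from parental to E0771-Res2 tumors in monocytes, macrophages and dendritic cells. In monocytes it stood at 166 and 126 CPM (parental), 99.3, 136 and 114 CPM (E0771-Res1) and 45.4, 44.9 and 63.3 CPM (E0771-Res2). The level of each E0771-Res2 tumor was under that of each other tumor. The change from parental to E0771-Res2 was -1.50 ± 0.17 on the log2 scale (adjusted p = 0.00039), or 2.83-fold lower, and from E0771-Res1 it was -1.17 ± 0.16 on the log2 scale (adjusted p = 0.00117), or 2.25-fold lower. Both contrasts kept their side of the threshold in every alternative run, leave-outs included. Macrophages carried less of the decoy, at 69.0 and 105 CPM (parental), 34.3, 44.8 and 71.2 CPM (E0771-Res1) and 26.0, 22.4 and 20.1 CPM (E0771-Res2). The corresponding changes were -1.86 ± 0.28 on the log2 scale (adjusted p = 0.00343) and -1.02 ± 0.26 on the log2 scale (adjusted p = 0.0467). Without parental replicate 3 the first was -1.57 (adjusted p = 0.0541). The second was lost without E0771-Res1 replicate 3, at -0.67 (adjusted p = 0.0859), and also without replicate 2 of that line or any 1 of the E0771-Res2 mice.

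Dendritic cells had the highest *Il1r2* of the main classes, at 395 and 510.2 CPM (parental), 242, 286 and 215 CPM (E0771-Res1) and 99.9, 65.5 and 118 CPM (E0771-Res2). The 3 groups formed 3 steps that did not overlap. The change from parental to E0771-Res2 was -2.21 ± 0.24 on the log2 scale (adjusted p = 0.000483), or 4.64-fold lower, the single member called between lines in this class. Dissociation stress genes were highest in the same E0771-Res2 dendritic cells, with the sums given below, and their part in this call was not tested. Against E0771-Res1 it was -1.36 ± 0.22 on the log2 scale (adjusted p = 0.0513). By subset, conventional dendritic cells averaged 365 ± 274 CPM (SD, n = 7) and mature dendritic cells 108 ± 48.4 CPM (SD, n = 6), over mice with at least 10 such cells. Across mice the conventional cells ranged from 81.1 to 871 CPM. The subsets were not compared between lines, and the part of the subset mix in the steps of the whole class was not tested.

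*Il1r2* stood at 66.4% to 220.2% (median 130.2%) of the monocyte level of the same mouse in T cells and at 0% to 43.6% (median 21.1%) in NK cells. The T cell range lay above those of the myeloid genes *Lyz2* (17.9% to 28.8%), *Cd14* (12.2% to 43.9%) and *Ccl6* (13.3% to 56.1%) in T cells. Dendritic cells held more *Il1r2* than monocytes, and the part of background in the T cell counts was not tested. Regulatory T cells, gated on *Foxp3*, averaged 249.6 ± 89.0 CPM (SD, n = 7) and CD8+ T cells 38.7 ± 28.5 CPM (SD, n = 6). The NK minus T difference was -2.84 ± 0.33 on the log2 scale (adjusted p = 1.86e-06). In that comparison 15% of 4729 genes were called, and 1 of 7 members. Lymphoid *Il1r2* stood at 93.3 and 87.7 CPM (parental), 111, 92.2 and 105 CPM (E0771-Res1) and 68.0, 61.1 and 108 CPM (E0771-Res2), and the groups overlapped. E0771-Res2 was -0.19 ± 0.23 on the log2 scale (adjusted p = 0.873) against parental and -0.42 ± 0.19 on the log2 scale (adjusted p = 0.498) against E0771-Res1. Neither passed, and whether these changes differ from those of myeloid cells was not tested.

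*Il1rn*, which encodes the receptor antagonist, was not called between lines in myeloid cells. Monocytes held 513 and 486 CPM (parental), 606, 565 and 714 CPM (E0771-Res1) and 677, 453 and 657 CPM (E0771-Res2), and macrophages 406 and 354 CPM (parental), 351, 304 and 453 CPM (E0771-Res1) and 299.96, 409.7 and 328 CPM (E0771-Res2). The E0771-Res2 values overlapped those of both other lines in both classes. In monocytes both parental mice lay below the 3 E0771-Res1 mice, and that difference, 0.35 ± 0.15 on the log2 scale (adjusted p = 0.557), did not pass. The E0771-Res2 minus parental values were 0.28 ± 0.15 on the log2 scale (adjusted p = 0.385) in monocytes and -0.16 ± 0.16 on the log2 scale (adjusted p = 0.707) in macrophages. Thus the agonist *Il1b* and the decoy *Il1r2* were both lower in E0771-Res2 monocytes and macrophages, while the antagonist did not pass in either class. In lymphoid cells *Il1rn* was higher in E0771-Res1 than in parental tumors by 0.88 ± 0.18 on the log2 scale (adjusted p = 0.0349), at 116 and 101 CPM (parental), 191, 235 and 183 CPM (E0771-Res1) and 192, 144 and 179.5 CPM (E0771-Res2). The lymphoid level was 20.7% to 41.6% (median 27.9%) of that of monocytes, a range that overlaps those of *Lyz2* and *Cd14*. The call was lost in 8 of 15 alternatives, among them DESeq2 (adjusted p = 0.0993) and each leave-out of a parental mouse, an E0771-Res1 mouse or E0771-Res2 replicate 1 (adjusted p from 0.0522 to 0.445). Of 7837 genes tested in lymphoid cells, 0.179%, 0.549% and 0.855% were called in the 3 contrasts, and of 9 members 1, 0 and 0. In the last pair 2 and 3 members had an unadjusted p under 0.05, beside 641 and 724 of all 7837 genes. DESeq2 called 0 members in all 3.

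*Il1rap*, which completes the IL-1 receptor, was sparse, with 802 UMIs in all. Its monocyte levels were 24.4 and 25.0 CPM (parental), 15.4, 20.2 and 20.3 CPM (E0771-Res1) and 11.6, 16.2 and 11.8 CPM (E0771-Res2). The values of E0771-Res2 and parental tumors did not overlap, and the change was -0.89 ± 0.21 on the log2 scale (adjusted p = 0.033). This call was lost in 6 alternatives. They were DESeq2 (adjusted p = 0.0658), cells with at least 4000 UMIs, and the leave-outs of E0771-Res2 replicates 1 and 3 (adjusted p = 0.102 and 0.127) and of either parental mouse. Macrophages had 6.24 to 9.34 CPM without a call. The signaling receptor *Il1r1* itself was close to absent from these cells, with 6 UMIs in monocytes, 8 in macrophages, 11 in dendritic and 9 in lymphoid cells summed over the 8 mice.

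*Nlrp3*, the inflammasome sensor, was called in the same contrasts as *Il1b*. Monocytes held 168 and 183 CPM (parental), 153, 194 and 214 CPM (E0771-Res1) and 113, 94.2 and 119 CPM (E0771-Res2), and macrophages 135 and 133 CPM (parental), 91.8, 147 and 191 CPM (E0771-Res1) and 72.9, 66.6 and 65.2 CPM (E0771-Res2). In both classes the E0771-Res2 tumors were the 3 lowest, and E0771-Res1 lay on both sides of parental. E0771-Res2 differed from E0771-Res1 by -0.77 ± 0.13 on the log2 scale (adjusted p = 0.00456) in monocytes, 1.7-fold lower, and by -1.0 ± 0.21 on the log2 scale (adjusted p = 0.0166) in macrophages, 2.0-fold lower. Against parental the values were -0.66 ± 0.14 on the log2 scale (adjusted p = 0.0217) and -0.98 ± 0.24 on the log2 scale (adjusted p = 0.0483). The monocyte call against parental was lost without parental replicate 1 or 3 or without E0771-Res2 replicate 3 (adjusted p = 0.153, 0.194 and 0.0519). The macrophage call against parental was lost without either parental mouse, E0771-Res1 replicate 2 or any 1 E0771-Res2 mouse (adjusted p from 0.0577 to 0.257), and that against E0771-Res1 without any 1 E0771-Res2 mouse (adjusted p from 0.0526 to 0.0686). Thinned shares of monocytes with an *Nlrp3* UMI were 24.6% ± 2.11 for parental, 26.9% ± 5.39 for E0771-Res1 and 17.9% ± 2.39 for E0771-Res2 mice.

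*Casp1*, the protease of the inflammasome, was not called between lines in any class. Monocytes held 167 and 184 CPM (parental), 149.7, 170.3 and 153 CPM (E0771-Res1) and 143, 158 and 159.6 CPM (E0771-Res2), and macrophages 109.99 and 127 CPM (parental), 90.2, 74.3 and 111 CPM (E0771-Res1) and 100.2, 94.9 and 86.0 CPM (E0771-Res2). Both parental tumors lay above the 3 E0771-Res2 tumors in each class, by little.

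**Figure D2:**
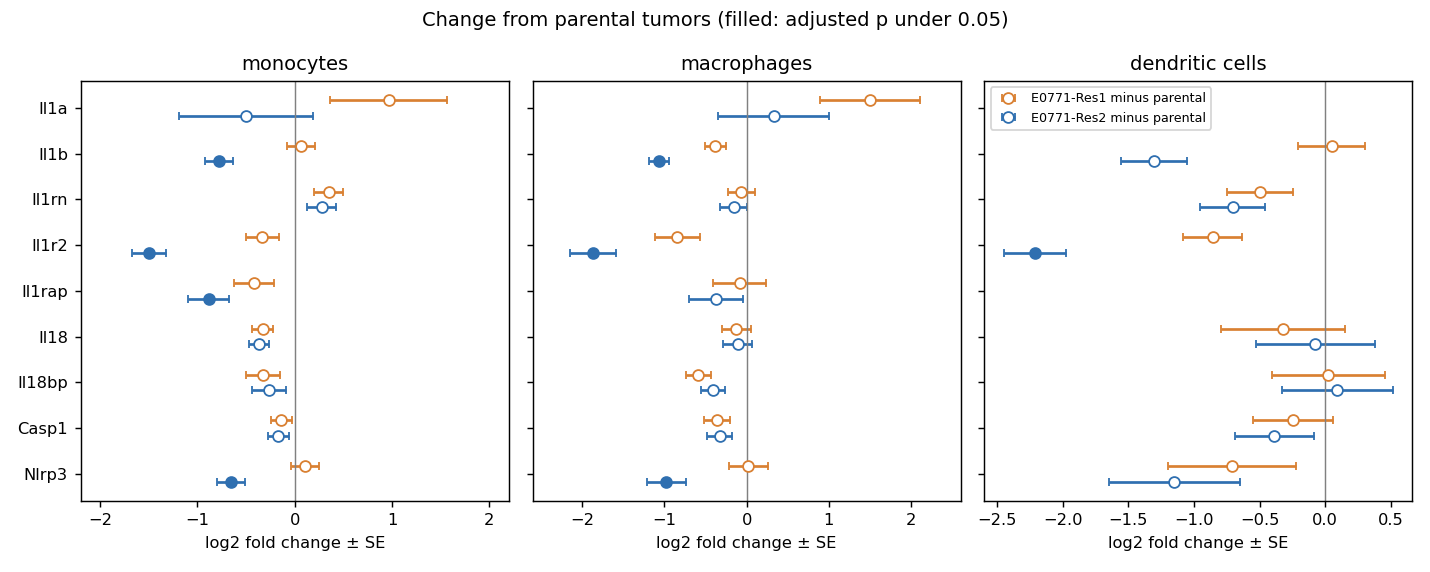
Fitted log2 fold change with its SE (x axis) from parental tumors for the members tested (rows) in monocytes, macrophages and dendritic cells, for E0771-Res1 in orange and E0771-Res2 in blue, filled where the adjusted p was under 0.05. All filled points belong to E0771-Res2 and lie left of 0, with *Il1r2* farthest left in each panel.

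*Il18* was highest in monocytes. Levels there were 173 and 175 CPM (parental), 130.2, 152 and 129 CPM (E0771-Res1) and 128, 137 and 133 CPM (E0771-Res2). Both parental tumors lay above the other 6, but the differences did not pass, at -0.33 ± 0.11 on the log2 scale (adjusted p = 0.374) for E0771-Res1 and -0.37 ± 0.11 on the log2 scale (adjusted p = 0.0735) for E0771-Res2. In macrophages the values were 58.1 and 66.4 CPM (parental), 59.4, 50.2 and 57.9 CPM (E0771-Res1) and 69.2, 50.7 and 48.9 CPM (E0771-Res2). The lines overlapped, and the changes were -0.13 ± 0.18 on the log2 scale (adjusted p = 0.845) and -0.11 ± 0.17 on the log2 scale (adjusted p = 0.834). Between the resistant lines *Il18* differed by -0.04 ± 0.10 on the log2 scale (adjusted p = 0.893) in monocytes and 0.02 ± 0.14 on the log2 scale (adjusted p = 0.978) in macrophages. The E0771-Res2 minus parental value in monocytes passed under 3 of 16 alternatives, which were no filter on low counts, the replicate number as a block, and monocytes with under 10 *C1qa* UMIs (adjusted p = 0.031, 0.0373 and 0.0425).

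*Il18bp*, which encodes the soluble inhibitor, was the 1 member that was higher in macrophages than in monocytes. It stood at 103 and 108 CPM (parental), 63.7, 71.6 and 80.6 CPM (E0771-Res1) and 84.9, 66.0 and 83.9 CPM (E0771-Res2) in macrophages, with both parental tumors above all resistant ones. That difference did not pass the test, and neither resistant line was called (adjusted p = 0.108 and 0.176). Monocytes held 64.9 and 58.4 CPM (parental), 48.4, 43.1 and 54.2 CPM (E0771-Res1) and 65.2, 41.2 and 44.8 CPM (E0771-Res2), and parental and E0771-Res2 tumors overlapped.

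*Il18r1* was a lymphoid gene in these tumors. It averaged 109 ± 27.1 CPM (SD, n = 8) in T cells and 119 ± 33.4 CPM (SD, n = 8) in NK cells, against 1.76 ± 0.844 CPM in monocytes and 1.73 ± 1.22 CPM in macrophages. CD8+ T cells averaged 168 ± 43.5 CPM (SD, n = 6) and regulatory T cells 66.4 ± 23.0 CPM (SD, n = 7). Lymphoid cells of the 3 lines overlapped, at 141 and 95.4 CPM (parental), 114, 113 and 111 CPM (E0771-Res1) and 99.8, 119.8 and 113 CPM (E0771-Res2). NK and T cells did not differ beyond their spread, at 0.06 ± 0.19 on the log2 scale (adjusted p = 0.894). The second subunit, *Il18rap*, averaged 139.9 ± 18.1 CPM in NK cells and 61.9 ± 32.5 CPM in T cells, a difference of 1.17 ± 0.20 on the log2 scale (adjusted p = 0.000265). The receptor was thus counted in other cells than those that held most *Il18*.

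**Figure D3:**
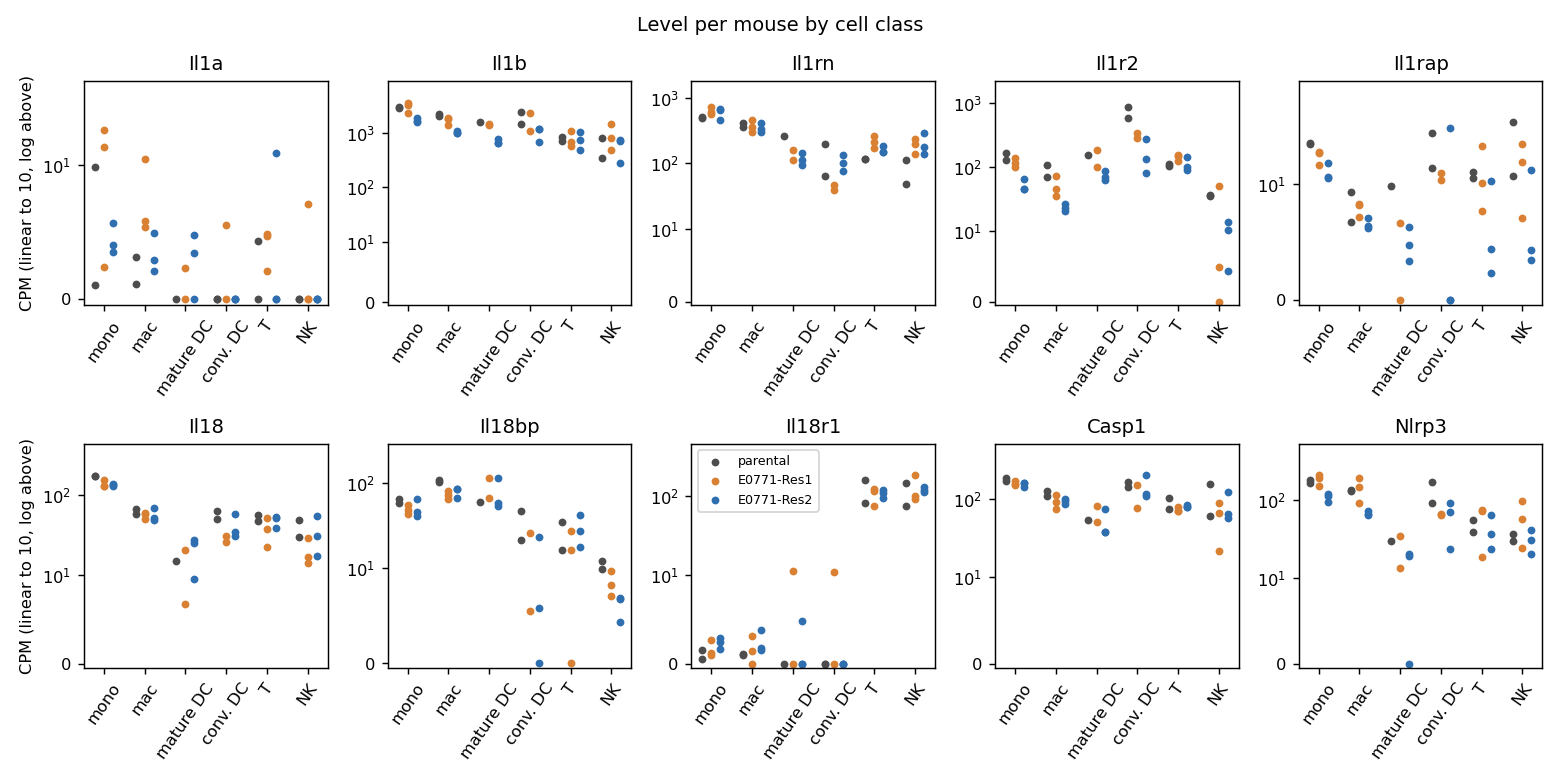
Level of each of the 10 genes (y axis, CPM, linear up to 10 and logarithmic above) in each mouse (points, colored by tumor line) for monocytes, macrophages, mature and conventional dendritic cells, T cells and NK cells, shown where a mouse had at least 10 such cells. *Il18r1* is high in T and NK cells and near 0 in monocytes and macrophages, whereas *Il1b*, *Il1rn*, *Il18* and *Nlrp3* are highest in monocytes.

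Classes were compared within mice. Macrophages had lower levels than monocytes for 8 of the 9 members tested, and *Il18bp* was higher by 0.46 ± 0.07 on the log2 scale (adjusted p = 2.03e-05). In this comparison 58.7% of 9014 genes were called in 1 direction or the other, so a call alone does not set the members apart. Their median change was -0.86 on the log2 scale, beside 0.0174 over all genes tested. *Il18* fell most, by 1.46 ± 0.08 on the log2 scale (adjusted p = 1.73e-11), or 2.75-fold. *Il1b* fell by 0.86 ± 0.08 on the log2 scale (adjusted p = 6.05e-08) and *Il1rn* by 0.85 ± 0.09 on the log2 scale (adjusted p = 2.5e-07). The decoy *Il1r2* fell by 1.27 ± 0.13 on the log2 scale (adjusted p = 8.82e-08), *Il1rap* by 1.32 ± 0.13 on the log2 scale (adjusted p = 9.24e-08), *Casp1* by 0.86 ± 0.07 on the log2 scale (adjusted p = 7.24e-09) and *Nlrp3* by 0.68 ± 0.07 on the log2 scale (adjusted p = 1.98e-07). *Il1a* fell by 1.01 ± 0.33 on the log2 scale (adjusted p = 0.0129), a call that DESeq2 did not make (adjusted p = 0.086). Of 11 dissociation stress genes, 7 were also called lower in macrophages and 0 higher, with a median change of -0.448 on the log2 scale. Their part in the differences between these classes was not tested.

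Dendritic cells differed from monocytes in another way. Their *Il1r2* was higher by 1.23 ± 0.12 on the log2 scale (adjusted p = 1.83e-08), or 2.34-fold, while 5 members were lower. *Il1rn* fell by 2.21 ± 0.14 on the log2 scale (adjusted p = 2.27e-11), or 4.63-fold, *Il18* by 1.95 ± 0.13 on the log2 scale (adjusted p = 1.06e-10) and *Nlrp3* by 1.65 ± 0.16 on the log2 scale (adjusted p = 3.24e-08). *Il1b* and *Casp1* were lower by smaller amounts, -0.82 ± 0.10 (adjusted p = 5.6e-07) and -0.83 ± 0.10 (adjusted p = 1.11e-06) on the log2 scale. Here 45.8% of 7591 genes were called, and 6 of 8 members, whose median change was -0.821 beside 0.0172 over all genes. Of 11 dissociation stress genes, 7 were lower than in monocytes and 0 higher, and their part was not tested.

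In lymphoid against monocyte sums 68.5% of 8489 genes were called, and all 9 members tested. *Il18r1* was higher by 5.67 ± 0.18 on the log2 scale (adjusted p = 1.39e-18), or 50.8-fold. The other 8 were lower. Among them, *Il1b*, *Il1rn*, *Il18* and *Nlrp3* had medians near the myeloid background given above. *Il1r2*, whose range lay above those of *Lyz2* and *Cd14*, differed least, at -0.39 ± 0.14 on the log2 scale (adjusted p = 0.0156). This call was lost with DESeq2 (adjusted p = 0.0637) and without parental replicate 1, at -0.23 (adjusted p = 0.127). *Casp1* stood at 38.4% to 55.7% of the monocyte level, *Il1rap* at 37.3% to 103% (median 51.1%) and *Il18bp* at 6.9% to 49.6% (median 39.3%). Their medians lay farther above the background, though their ranges overlapped that of *Cd14*. The part of background in the counts of *Casp1*, *Il1rap* and *Il18bp* was not tested. Of 11 dissociation stress genes, 8 were lower in lymphoid cells than in monocytes and 0 higher, and their part was not tested.

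The balance of agonists to inhibitors was taken as a ratio of UMIs within each mouse, which needs no scaling for library size. For (*Il1a* + *Il1b*) over (*Il1rn* + *Il1r2*), monocytes gave 4.17 and 4.83 (parental), 4.49, 5.03 and 2.72 (E0771-Res1) and 2.52, 3.08 and 2.28 (E0771-Res2). Macrophages, in the same order of lines, gave 4.23 and 4.86, then 3.55, 5.1 and 3.51, then 3.29, 2.33 and 2.83. Agonist UMIs outnumbered those of the inhibitors in every tumor, and the group mean was lowest in E0771-Res2 in both classes. The mean log2 ratio of monocytes was 2.17 ± 0.15 (parental, SD, n = 2), 1.98 ± 0.47 (E0771-Res1, n = 3) and 1.38 ± 0.22 (E0771-Res2, n = 3). E0771-Res2 was not lowest in the other classes. Dendritic means were 1.552 (parental), 2.315 (E0771-Res1) and 1.91 (E0771-Res2). Lymphoid means were 1.847 (parental), 1.377 (E0771-Res1) and 1.399 (E0771-Res2). Lines were not tested for the ratio in these classes. With both lines pooled, the 6 resistant tumors were lower than the 2 parental ones by 0.49 in monocytes (exact permutation test, two-sided, p = 0.321, adjusted over 6 ratio tests p = 0.482) and by 0.44 in macrophages (exact permutation p = 0.214, adjusted p = 0.429). Neither passed, and an exact permutation test of 3 tumors against 2 could not have gone below p = 0.1. The tests run, of 6 tumors against 2, have only 28 splits. After adjustment over 6 tests a lone difference could not pass, so no absence of a difference is read from them. Between macrophages and monocytes of the same mouse the ratio differed by 0.05 ± 0.30 (SD, n = 8, exact permutation p = 0.703, adjusted p = 0.844).

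For *Il18* over *Il18bp* the cell classes stood on opposite sides of 1. Monocytes gave 2.66 and 2.98 (parental), 2.69, 3.52 and 2.38 (E0771-Res1) and 1.96, 3.32 and 2.96 (E0771-Res2). Macrophages gave 0.567 and 0.617, then 0.934, 0.702 and 0.72, then 0.816, 0.77 and 0.584. So *Il18* UMIs exceeded those of its inhibitor in the monocytes of all 8 mice and fell short of them in the macrophages of all 8. Whether both genes were captured equally well was not tested, so the side of 1 gives no excess of transcripts. The log2 ratio was lower in macrophages by 1.97 ± 0.42 (SD, n = 8, exact permutation p = 0.00781, the smallest that 8 pairs allow, adjusted p = 0.0469). Resistant against parental tumors gave -0.04 in monocytes (exact permutation p = 0.929, adjusted p = 0.929) and 0.34 in macrophages (exact permutation p = 0.143, adjusted p = 0.429). These tests had the same 28 splits and the same limit.

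**Figure D4:**
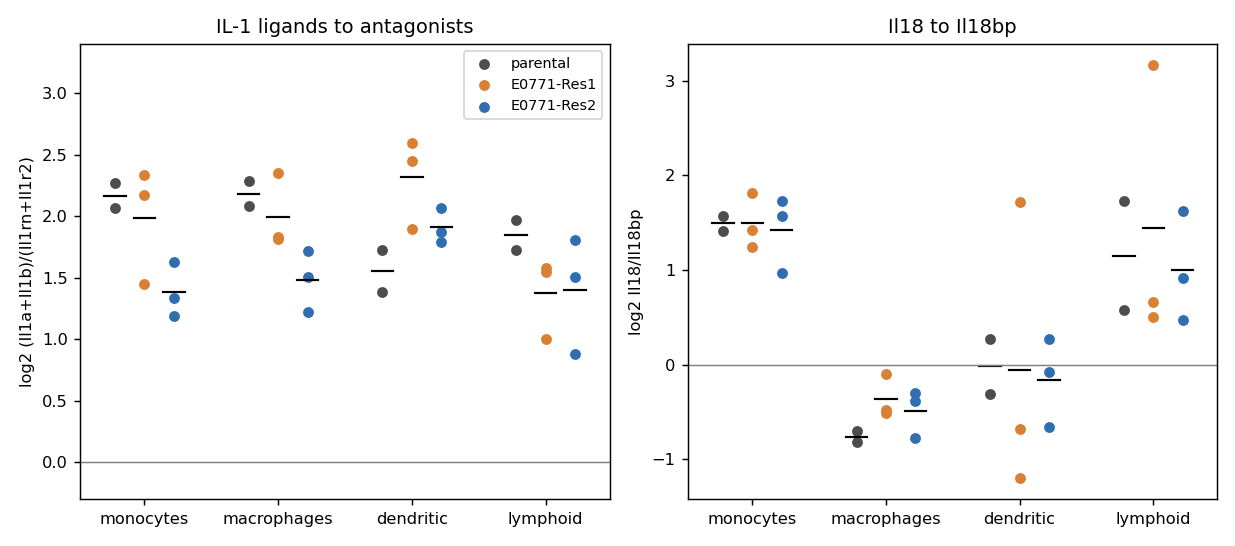
Log2 ratio of agonist to inhibitor UMIs (y axes) in each mouse (points, colored by tumor line, bars for group means) by cell class, with IL-1 on the left and IL-18 on the right and a grey line at 0, where both are equal. The *Il18* to *Il18bp* ratio is above 0 in every monocyte sum and below 0 in every macrophage sum, and the IL-1 ratio of monocytes and macrophages is lowest on average in E0771-Res2.

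Further genes of the pathway were taken from a list. The list of 41 genes (receptors, IL-33 and IL-36 family members, adaptors, kinases, inflammasome parts and gasdermins) was fully matched, 4 of them under older *Il1f* symbols. Of 31 tested in monocytes, 1 was called in E0771-Res2 against parental, where 3.21% of all genes were. This was *Naip2*, a sensor of bacterial proteins, at -0.54 ± 0.14 on the log2 scale (adjusted p = 0.0404). DESeq2 called 0 of the 31 in this contrast. In macrophages 2 of 29 were called in that contrast, beside 2.16% of all genes, and DESeq2 called the same 2. *Myd88*, the adaptor shared by IL-1, IL-18 and Toll-like receptors, was -0.70 ± 0.14 on the log2 scale (adjusted p = 0.0144), and *Peli1*, a ubiquitin ligase of that route, was -0.71 ± 0.12 on the log2 scale (adjusted p = 0.00571). E0771-Res1 against parental and E0771-Res2 against E0771-Res1 gave 0 calls in both classes, and DESeq2 made 0, 0, 1 and 0 calls (monocytes first). In the same order, 4, 3, 4 and 4 pathway genes had an unadjusted p under 0.05 in edgeR. Over all genes tested these counts were 778, 1605, 1127 and 1512. None of 15 genes in dendritic cells (0 at an unadjusted p under 0.05 in each contrast) and none of 24 in lymphoid cells (0, 1 and 2) was called by edgeR or by DESeq2.

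Between macrophages and monocytes 6 of 30 pathway genes were higher and 13 lower. Among the lower were *Casp4*, a caspase that senses bacterial lipopolysaccharide, at -1.09 ± 0.07 on the log2 scale (adjusted p = 3.56e-10), the kinase *Irak2* at -1.01 ± 0.08 on the log2 scale (adjusted p = 1.93e-09) and the pore-forming *Gsdmd* at -0.67 ± 0.07 on the log2 scale (adjusted p = 8.5e-08). Among the higher was *P2rx7*, the ATP receptor that can trigger NLRP3, at 0.43 ± 0.09 on the log2 scale (adjusted p = 0.000514). Dendritic cells had 2 of 24 higher than monocytes, *Traf6* at 1.26 ± 0.18 on the log2 scale (adjusted p = 5.71e-06) and *Irak1*, and 13 lower. Lymphoid cells had 5 of 28 higher and 17 lower, led by *Il18rap* at 3.79 ± 0.15 on the log2 scale (adjusted p = 1.57e-16) and by *Sigirr*, an inhibitory receptor of the family, at 2.47 ± 0.18 on the log2 scale (adjusted p = 1.48e-11). NK against T cells gave 1 higher, *Il18rap*, and 1 lower, *Peli1*, of 13. Over all genes tested, 58.7%, 45.8%, 68.5% and 15% were called in these comparisons, in the order given. A call alone therefore does not set a pathway gene apart.

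Some other measures moved with E0771-Res2. Over all genes tested against parental, 3.21% were called in monocytes, 2.16% in macrophages, 0.0367% in dendritic and 0.549% in lymphoid cells. Of 11 genes known to rise during tissue dissociation, 6 were higher in E0771-Res2 than in parental monocytes, *Jun* by 1.19 ± 0.21 on the log2 scale (adjusted p = 0.00734) and *Dusp1* by 0.83 ± 0.13 on the log2 scale (adjusted p = 0.0046) among them. Their summed level was 8806 to 9422 CPM (parental), 9101 to 11581 CPM (E0771-Res1) and 10859 to 14274 CPM (E0771-Res2). In macrophages *Hspa1a*, a heat shock protein gene, was higher by 1.67 ± 0.37 on the log2 scale (adjusted p = 0.0294) and *Ier2* lower, and the sums overlapped, at 8249 to 8418 CPM (parental), 8231 to 8833 CPM (E0771-Res1) and 8181 to 8982 CPM (E0771-Res2). The related *Hspa1b* stood at 2.01 ± 0.51 on the log2 scale (adjusted p = 0.0589) there, and DESeq2 called 3 higher and 1 lower. The share of all genes that DESeq2 called is not given here, so these counts alone do not set the stress genes apart. In dendritic cells *Jun* alone was called, by 1.2 ± 0.19 on the log2 scale (adjusted p = 0.041). At an unadjusted p under 0.05 stood 7 of the 11 genes, beside 421 of all 5453. The dendritic sum was highest in E0771-Res2, at 6473 to 7663 CPM (parental), 6884 to 7460.5 CPM (E0771-Res1) and 8489.8 to 9177 CPM (E0771-Res2). In lymphoid cells *Jun* and *Dusp1* were called, with 6 of 11 at an unadjusted p under 0.05, beside 641 of all 7837 genes. The lymphoid sum was 6982 to 7969 CPM (parental), 7222 to 8306 CPM (E0771-Res1) and 8500.4 to 9420.2 CPM (E0771-Res2). Against E0771-Res1, *Jun* and *Dusp1* were called higher in E0771-Res2 monocytes, with 5 of 11 stress genes at an unadjusted p under 0.05, beside 1605 of all 9380 genes. *Dusp1* was called higher in lymphoid cells in that contrast, and 0 stress genes were called in macrophages and dendritic cells. The median depth per cell was also lowest in E0771-Res2. The part of the stress genes in the results was not tested. For depth, the *Il1b* values in cells of at least 4000 UMIs are given above, and the *Il1rap* call in monocytes was lost in such cells.

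Neutrophils, which can hold much *Il1b* and *Il1r2*, were 19 gated cells in all. Of 9 neutrophil genes, 4 were tested in monocytes and 2 in macrophages, and edgeR called 0 in any contrast between lines, as did DESeq2. At an unadjusted p under 0.05 edgeR had 0, 0 and 1 of them in monocytes and 0, 0 and 2 in macrophages. In the last contrast 1605 of all 9380 genes in monocytes and 1512 of all 9132 in macrophages were at that p. The summed level of the neutrophil genes in monocytes was 125 to 133 CPM (parental), 121 to 153 CPM (E0771-Res1) and 135 to 162 CPM (E0771-Res2). In macrophages it was 77.3 to 103 CPM (parental), 67.4 to 85.1 CPM (E0771-Res1) and 95.2 to 113 CPM (E0771-Res2), and 2 to 5 of the 9 genes were at 0 in each sum. *Retnlg* and *Cxcr2* of the neutrophil list formed the neutrophil gate, so their counts in these classes were limited in advance. The part of neutrophil transcripts in the *Il1b* and *Il1r2* results was not tested. Of the other lists, edgeR called the hemoglobin gene *Hbb-bs* lower in E0771-Res2 than in parental macrophages, where 1 mouse held most of the erythroid counts. The 5 erythroid genes summed to 153.05 CPM in parental replicate 1 and 1.12 CPM in parental replicate 3, beside 2.08 to 12.5 CPM in E0771-Res2. DESeq2 gave *Hbb-bs* no adjusted p. edgeR also called *Bst2*, listed for plasmacytoid cells, higher in E0771-Res2 than in E0771-Res1 monocytes (adjusted p = 0.0377) and macrophages (adjusted p = 0.0487). Tumor epithelial and B cell genes gave 0 calls by edgeR and DESeq2 in these classes, with 1 and 0 at an unadjusted p under 0.05. Cells meeting the B cell gate, which uses the same genes as the B cell list, were already out of both classes. Monocytes were also gated on low Epcam, *Krt8* and Krt18. These counts were thus limited in advance by the gates. No mast cell or basophil gene was counted enough to be tested.

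Over the 32 sums of 4 classes in 8 mice, the genes whose log2 CPM followed *Il1b* most closely among 4216 genes were *Capza2* (r = 0.889), *Mcub* (r = 0.884), *Arpc1b* (r = 0.88), *Parp12* (r = 0.87) and *Cdkn1a* (r = 0.866). Those closest to *Il18* were *C1galt1c1* (r = 0.924), *Msrb1* (r = 0.918), *Lyz2* (r = 0.912), *Casp1* (r = 0.901) and *Irf2* (r = 0.899). The 32 points share mice, libraries and the contrast between classes, so these coefficients are a description of likeness in level.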

How the data were processed

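Single-cell RNA-seq of sorted CD45+ tumor cells from 8 mice was analysed. Per the labels and methods, the authors marked the cells of each mouse with multiplexing oligonucleotides, pooled them, made 3′ libraries, and aligned and counted reads with Cell Ranger (6.1.2 in the file headers, mm10). The study's methods used Seurat to normalize and cluster cells, steps that are not in the deposited counts. The deposited counts are UMIs per gene and cell, 1 table per mouse, with no normalization. The 9 oligonucleotide tags were left out, as were mt-, Rpl, Rps and Gm genes (23633 remained). Kept cells had 500 to 6000 genes and under 10% mitochondrial counts, 4993722 to 18544500 UMIs per mouse. No barcode was shared between mice. No doublet caller was run. The 308 cells meeting several gates, or a T, NK, B cell or neutrophil gate with at least 10 *C1qa* UMIs, stayed out.

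Gates used raw UMIs. T cells had at least 3 of Cd3d, Cd3e and Cd3g together. NK cells had at least 3 of Ncr1, Klrb1c and Klre1 and at most 2 of Cd3. B cells had at least 3 of Cd79a, Cd79b and Ms4a1, and neutrophils at least 2 of Retnlg and Cxcr2. Dendritic cells had at least 5 of Ccr7 and Fscn1, 2 of Xcr1 and Clec9a, or 3 of Cd209a and Flt3, with *C1qa* under 10. Of the rest, macrophages had at least 10 *C1qa* UMIs, and monocytes at most 3 and at least 10 of Ly6c2, Chil3, Plac8, Vcan and Fn1, with under 3 of Epcam, *Krt8*, Krt18, Col1a1 and Col3a1. T, NK and B cells and neutrophils with at least 10 *C1qa* UMIs stayed out, as part of the 308 cells above. Regulatory T cells had at least 1 *Foxp3* UMI, and of the others CD8+ T cells had at least 2 of Cd8a and Cd8b1 and 0 Cd4.

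UMIs were summed per mouse and class (at least 10 cells) and tested with edgeR 4.0.16 (R 4.3.3, filterByExpr, TMM, quasi-likelihood test) over all genes, lines in 1 fit of 8 mice and classes with the mouse as a block. A call is a Benjamini-Hochberg adjusted p under 0.05. Errors of fold changes are standard errors. The scripts were tested on simulated data. Ratios (0.5 added to each sum) had two-sided exact permutation tests, adjusted over 6. Mice are the replicates. DESeq2 gave no adjusted p for some genes with few counts, which are counted neither as called nor as lost. Shares of all genes called are those of edgeR. Alternatives were DESeq2 1.42.0, no filter, all genes, all cells, gate limits scaled to 8000 UMIs, leaving out each mouse, and other blocks. Fold changes are given for called members and for *Il1b* and *Il18* in macrophages and monocytes, with others added after their values were seen. Likeness used log2 of CPM plus 1 over genes averaging at least 5. The members, gates and lists were chosen with earlier results of these data known.

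Correlations of the deviations of same-numbered mice of different lines were small, from -0.0667 to 0.0834 in monocytes and -0.0391 to 0.0675 in macrophages. Different-numbered mice gave -0.07 to 0.07 and -0.067 to 0.0786. Between E0771-Res1 and E0771-Res2 monocytes the same-numbered pairs were all positive (0.0683, 0.073 and 0.0834). The different-numbered ones were all negative there (-0.064 to -0.0119). Deviations were taken from group means, which ties these values together, so the opposite signs are not separate observations. Values of the parental mice mirror each other for the same reason. Macrophages had no such split. Replicate numbers were not taken as pairs, and the replicate block was run as an alternative.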

Additional observations from a re-analysis of the deposited data

Results flagged for a closer look

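E0771-Res1 and E0771-Res2 were compared by the difference of their changes from parental tumors, which equals the E0771-Res2 minus E0771-Res1 contrast of the fit and was tested there. These 6 results passed. In monocytes the difference on the log2 scale was -0.84 for *Il1b*, -1.17 for *Il1r2* and -0.77 for *Nlrp3*. In macrophages it was -0.69 for *Il1b*, -1.02 for *Il1r2* and -1.0 for *Nlrp3*. In each case the 3 E0771-Res2 mice lay below the 3 E0771-Res1 mice. The results were taken for their calls in this same contrast, so that separation adds no support. The share of all genes that separate so was not counted. The macrophage values of *Il1r2* and *Nlrp3* lost their calls in some of the leave-outs, as given above. Groups of 2 or 3 mice are too small to test a single mouse as an outlier.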

How the results depend on the processing

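Of 739 comparisons of a named member under an alternative, 688 kept direction and side of the threshold, 40 lost it, 5 gained it and 6 reversed. The number of member calls summed over the 3 contrasts between lines was 7 in monocytes (leaving out 1 mouse, 4 to 8) and 6 in macrophages (3 to 8). In dendritic cells it was 1, but 4 with DESeq2, 4 with no filter, 3 with all genes kept, 3 with gate limits per 8000 UMIs and 1 to 4 leaving out 1 mouse. In lymphoid cells it was 1, but 0 with DESeq2, 2 with no filter and 0 to 2 leaving out 1 mouse. NK against T cells gave 1, or 2 with no filter. The cause was not tested. Shares of all genes called under these alternatives are not given here, so their counts alone do not set the members apart.

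The IL-1 ratio between macrophages and monocytes was -0.00301 to 0.11 leaving out 1 mouse and reversed without E0771-Res1 replicate 3 (-0.000389) and E0771-Res2 replicate 1 (-0.00301). The *Il18* to *Il18bp* ratio between them was -2.08 to -1.92, with adjusted p = 0.0938 throughout, since 7 pairs cannot give a smaller adjusted p. Its resistant minus parental value in monocytes was -0.117 to 0.0624, reversed without parental replicate 3 (0.0455), E0771-Res1 replicate 3 (0.0063) and E0771-Res2 replicate 1 (0.0624).

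Reversals of uncalled values near 0 were *Il1b* in monocytes, E0771-Res1 minus parental (-0.096 without E0771-Res1 replicate 2, up to 0.215 leaving out other mice, -0.001 with the replicate block), and *Il18* for E0771-Res2 minus E0771-Res1 (leaving out 1 mouse, -0.098 to 0.05 in monocytes and -0.178 to 0.118 in macrophages, and -0.063 in macrophages with gate limits per 8000 UMIs). With the replicate block the member calls summed over the 3 contrasts were 9, 6, 1 and 1 in monocytes, macrophages, dendritic and lymphoid cells. The small numbers of dendritic and lymphoid cells limit what their sums can show.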

Other observations

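The 2804 cells that met no gate also held the members. Their *Il1b* stood at 3060.2 and 2339 CPM (parental), 2646, 3504 and 2445 CPM (E0771-Res1) and 1734, 1336 and 1208 CPM (E0771-Res2). Their *Il1r2* stood at 139 and 166 CPM (parental), 145, 74.2 and 96.6 CPM (E0771-Res1) and 30.8, 34.4 and 29.3 CPM (E0771-Res2). The E0771-Res2 values were the 3 lowest for both genes. *Nlrp3* in these cells stood at 192 and 161 CPM (parental), 199.6, 265 and 220.2 CPM (E0771-Res1) and 108, 83.5 and 112 CPM (E0771-Res2). *Il1a*, rare in the gated classes, stood at 4.18 and 2.44 CPM (parental), 28.8, 78.9 and 42.6 CPM (E0771-Res1) and 5.38, 7.95 and 7.21 CPM (E0771-Res2). All 3 E0771-Res1 tumors lay above the other 5 in *Il1a*, as they did in the gated macrophages. The cells without a gate were not tested.

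The 19 cells gated as neutrophils numbered 0 to 5 per mouse. Their sums held from 10 to 137 *Il1b* UMIs and from 2 to 44 *Il1r2* UMIs per mouse with such cells, too few for a comparison between lines.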
